A study of Mus musculus with 6 samples.

Results

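The comparison described here is that of MIN6 cells made to carry extra miR-7 with MIN6 cells carrying green fluorescent protein (GFP). MIN6 is an insulin-secreting mouse beta-cell line. Of the 6 arrays in the series, 4 belong to it by their titles. They are 1 array of cells infected with an adenovirus for GFP (AdGFP), 2 with an adenovirus for miR-7a (AdmiR7a, replicates 1 and 2) and 1 with an adenovirus for miR-7b (AdmiR7b). All 4 samples received 250 infectious units per cell and were kept 48 h after infection. Their medium was DMEM containing glucose at 4.5 g/l and Glutamax. It also held FBS at 2% and 2-mercaptoethanol at 5.5 µM. The series text describes AdmiR7a as a duplicate infection of the vector for miR-7a2, and nothing in the labels says whether the cultures were grown separately. The p-values therefore measure the spread between these arrays, which may be technical. The remaining 2 arrays hold RNA of pancreatic islets of C57BL/6 mice, 1 from a knockout of miR-7a2 restricted to beta cells (KO) and 1 from wild type (WT).

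MicroRNAs are short RNAs that guide Argonaute proteins to messenger RNAs, mostly through pairing of their seed, bases 2 to 8, with sites in the 3' untranslated region. A paired messenger RNA is translated less and is often degraded faster, so that its direct effect on a transcript level is a decrease. miR-7 is among the most abundant microRNAs of endocrine islet cells and of some neurons. The mature sequences of both vectors' products, from RefSeq (GRCm38.p6), are shown because the seed is what the arrays have in common, with the seed in capitals.
mmu-miR-7a-5p: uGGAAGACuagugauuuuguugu
mmu-miR-7b-5p: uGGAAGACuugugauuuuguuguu
Counted from 1 at the 5' end, miR-7b-5p differs from miR-7a-5p by the substitution A10U and by 1 extra base at its end. The seed is the same in both, and among 1679 mature mouse microRNA names in the RefSeq table only these 2 carry it. miR-7a-5p is encoded at chr7:78888295-78888317 (plus strand, Mir7-2) and at chr13:58392841-58392863 (minus strand, Mir7-1), and miR-7b-5p at chr17:56243017-56243040 (plus strand). The hairpin of miR-7a2 also yields a strand from its other arm, shown because the vector could produce it as well, and that strand has another seed.
mmu-miR-7a-2-3p: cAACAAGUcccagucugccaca
The arrays measured messenger RNA only, so the level of mature miR-7 in these cells was not analysed here. Hnrnpk, whose intron holds Mir7-1, stood at 14.46 on AdGFP and 14.39, 14.53 and 14.31 on the miR-7 arrays (log2 intensity, here and below in the order AdmiR7a replicate 1, AdmiR7a replicate 2, AdmiR7b). Oip5os1, the long RNA known as Cyrano that promotes decay of miR-7, stood at 9.60 on AdGFP and 9.50, 9.46 and 9.42 on the miR-7 arrays. Neither passed the test described next (adjusted p = 0.737 and 0.238).

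Values are log2 intensities, with 1 probe set per gene, that with the highest mean over the 4 arrays, for the 10369 genes with a mean of at least 4. Between 30.5% and 31.3% of probe sets sat at the floor of the deposited scale, 2.17, and between 44.7% and 45.0% lay at 4 or more. Of 10 beta-cell markers measured, 9 lay at 4 or more, among them Ins2 (15.76 on AdGFP, 15.86, 15.69 and 15.91 on the miR-7 arrays) and Iapp. Of the 9, the transcription factor genes Pdx1 (13.19 on AdGFP, 12.18, 12.30 and 12.13 on the miR-7 arrays) and Nkx6-1, the granule zinc transporter gene Slc30a8 and the prohormone convertase gene Pcsk1 fell, in the test described below, by 0.99, 0.76, 0.73 and 0.58 (log2). The exception to the level of 4 was the glucose transporter gene Slc2a2, at 3.84 on AdGFP and 2.52 on each miR-7 array. Markers of acinar (6 genes), immune (7) and stellate or fibroblast cells (7) were all below 4 on every array. Of 6 endothelial markers 5 were below 4, the other, Plvap, being at 3.50 on AdGFP and 4.28, 4.36 and 4.42 on the miR-7 arrays. Of 4 alpha-cell markers, the glucagon gene Gcg stood at 13.35 on AdGFP and 12.71, 12.93 and 12.83 on the miR-7 arrays. The ductal keratin gene Krt7 was at 11.84 on AdGFP, while 3 other ductal markers were below 4. Differences between 3' and 5' probe sets of actin, a measure of RNA integrity, lay between 1.43 and 1.48 on the 4 arrays. Summed over each marker list, where the most abundant genes weigh most, the level of beta-cell markers was 17.98 on AdGFP and 17.82 to 17.93 on the miR-7 arrays, that of alpha-cell markers 16.34 and 16.15 to 16.23, that of delta, PP and epsilon markers 9.79 and 9.50 to 9.73, that of ductal markers 11.85 and 11.58 to 11.80, and that of endothelial markers 5.17 and 5.48 to 5.56. The part of these shifts in the results was not tested. In bulk RNA, fewer cells of a type and less RNA per cell cannot be told apart.

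A large part of the transcriptome stood apart between miR-7 and GFP cells. The 3 miR-7 arrays were taken as 1 group, because the vectors' products share their seed, and compared with AdGFP by limma, two-sided, with Benjamini-Hochberg adjustment over all genes. In this fit 1480 genes rose (14.3% of those tested) and 1235 fell (11.9%), 2715 in all (26.2%), at an adjusted p under 0.05. The words rose and fell below refer to it. Most changes were moderate. The median of the genes that rose was 0.62 and that of the genes that fell was -0.71 (log2), with 647 and 411 of them under a size of 0.58, against a median of 0.062 over all genes. By size alone, 223 genes (2.15%) were at least 1 above AdGFP on all 3 miR-7 arrays and 211 (2.03%) at least 1 below, 434 in all (4.19%), and of these 220 rose and 210 fell. At least 2 above were 31 genes, and at least 2 below 11.

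The control group is 1 array, and the fit assumes that it varies like the miR-7 arrays. Pairs of miR-7 arrays differed by an SD of 0.194 to 0.215 across genes, with 19 to 37 genes 1 or more apart. The AdGFP array differed from them by 0.509 to 0.575, with 586, 599 and 842 genes 1 or more apart. Whatever is particular to the AdGFP array enters every difference, and cannot be told apart from the effect of the vectors. The fit has 2 residual degrees of freedom. With any of the miR-7 arrays left out it has 1, and no gene then passed: 0 genes without AdmiR7a replicate 1 (3765 at an unadjusted p under 0.05), 0 without AdmiR7a replicate 2 (3888) and 0 without AdmiR7b (3811), the lowest adjusted p being 0.065, 0.0772 and 0.0667. At an adjusted p under 0.10, limma called 2618, 2711 and 2654 genes in these fits, and 1783 of the 2715 genes (65.7%) were called in each of them. All 2715 kept their direction, but these fits share the AdGFP array and most miR-7 arrays, so this is no independent check.

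**Figure D1:**
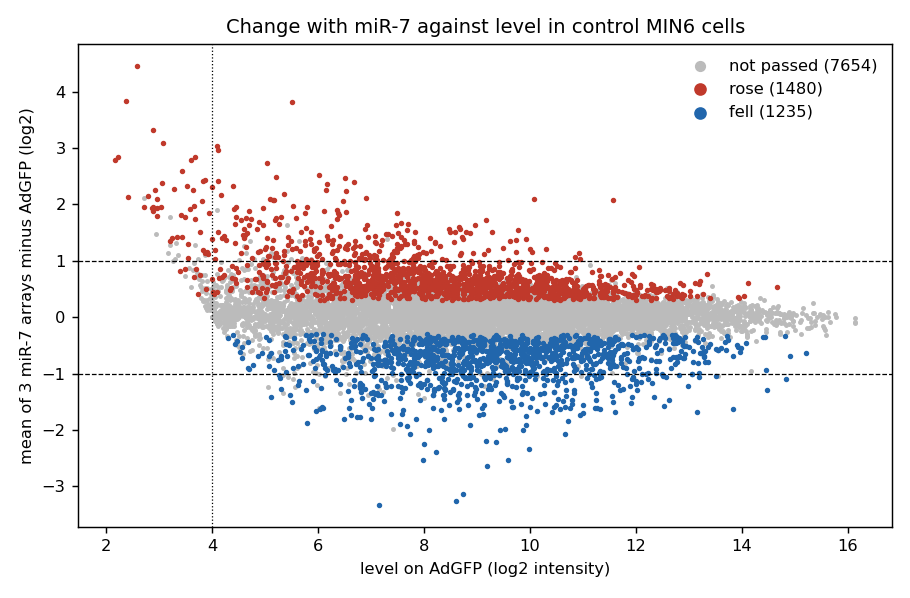
Each point is 1 of 10369 genes, with its log2 level on AdGFP (x axis) and the mean of the 3 miR-7 arrays minus AdGFP (log2, y axis), red where it rose and blue where it fell. Dashed lines mark a difference of 1 and the dotted line the filter level of 4; no gene below 4 on AdGFP fell, where the filter admits only genes that are higher with miR-7, and no gene at 12 or more was 1 or more higher on all 3 arrays.

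By their level on AdGFP, rises and falls sat in different parts of the intensity scale. The lone AdGFP array gives this level and also enters every difference with a minus sign. Variation of that array alone would place rises at low levels and falls at high ones, and its part was not tested. Among genes between 6 and 8 on AdGFP, 75 (3.28%) were at least 1 higher on all 3 arrays and 53 (2.32%) at least 1 lower. Between 8 and 10, 27 (0.805%) were higher and 86 (2.56%) lower, and between 10 and 12 the numbers were 6 (0.251%) and 53 (2.22%). At 12 or more, 0 of 1119 genes were that much higher and 12 (1.07%) that much lower. Below 4 on AdGFP, 43 of 104 genes were at least 1 higher, but a gene that low passes the filter only if it is higher on the miR-7 arrays, so this share is fixed by the filter. Between 4 and 6, 72 of 1112 genes (6.47%) were at least 1 higher and 7 (0.629%) at least 1 lower. There too the filter removes some genes that fall. Of the large changes, 108 higher and 160 lower genes were at 6 or more on both sides, above the common floor of 2.17. Some genes held 1 value on every array at a higher level, as Rpl39 did at 7.68. A level of 6 therefore does not by itself exclude such a value.

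Other probe sets of the same genes gave the same directions for most of the large changes. Of the 211 lower genes, 92 had another probe set with a mean of at least 4 (the one with the next highest mean was used), and it was lower in 88 of them and lower by at least 0.58 in 79. Of the 223 higher genes 60 had such a probe set, which was higher in 57 and by at least 0.58 in 49. Probe sets of a gene share the RNA and the arrays, so this describes the probes and not the cultures. Among all 1480 genes that rose, 611 had another such probe set, and for 8 of them (Alyref, Cab39l, Ccny, Cul3, Entpd7, Inip, Pphln1 and Srgap2) it was at least 1 lower, so that the direction of these genes depends on the probe set. Of 254 genes that passed and are in a gene list or named by rule, 130 had another probe set. It was in the same direction in 124, and passed on its own in that direction in 63. For most genes named below whose other probe set gave a clearly smaller value and did not pass, that value is printed beside them. Where no value is printed, the gene may have no other probe set, or 1 that did not pass. The other probe set passed at a smaller size for Defb1 (2.72), Sdc4 (1.22), Bace2 (-1.10), Ero1b (-0.82), Parp1 (-0.94) and Fads1 (-0.58).

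The 15 largest falls were taken among genes at 6 or more on both sides. By the same rule each also fell in the test and was at least 1 below AdGFP on all 3 miR-7 arrays. They included surface receptors, transporters and metabolic or signalling enzymes. Cckar, the receptor for cholecystokinin, stood at 9.58 on AdGFP and at 7.30, 7.12 and 6.71 on the miR-7 arrays, and fell by 2.54 ± 0.25 (log2, SE; adjusted p = 0.0138). P2ry1, a purinergic receptor that couples extracellular ADP to calcium release, went from 9.35 to 7.17, 7.05 and 7.21 and fell by 2.21 ± 0.10 (adjusted p = 0.010). For Cth, which makes cysteine from cystathionine, the values were 9.98 against 7.55, 7.59 and 7.79. On these genes the miR-7 arrays lay close together and far below AdGFP, which the rule favours.

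Prkcb, which encodes protein kinase C beta, was at 10.72 on AdGFP and 9.02, 8.95 and 8.67 on the miR-7 arrays (fell by 1.84 ± 0.17). Vav3, an exchange factor that activates Rac GTPases, went from 8.39 to 6.71, 6.75 and 6.28 (fell by 1.81). The membrane protease gene Adam9 was at 9.93 against 8.10, 8.25 and 7.72. In each of these 3 genes every miR-7 array was at least 1 below AdGFP, as the rule requires. Slc5a3, the transporter of myo-inositol, fell by 2.01 (8.09 against 6.44, 5.77 and 6.06), and Slc25a10, the mitochondrial dicarboxylate carrier, fell by 1.98 (9.54 against 7.69, 7.44 and 7.54). Dym, a Golgi-associated protein gene, fell by 2.19, and Praf2, a membrane protein gene of the early secretory pathway, fell by 1.92. Hspa1b, an inducible heat shock chaperone gene, fell by 2.07, and its probe sets may share signal with the near-identical Hspa1a. The others were Tcim (fell by 2.63), the predicted gene Gm15706 (fell by 2.00), Cplx1 (fell by 2.00, other probe set -1.09) and Susd6 (fell by 1.81). The 15 genes had adjusted p between 0.010 and 0.0357, and 8 of 8 with another probe set were lower there by at least 0.58.

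**Figure D2:**
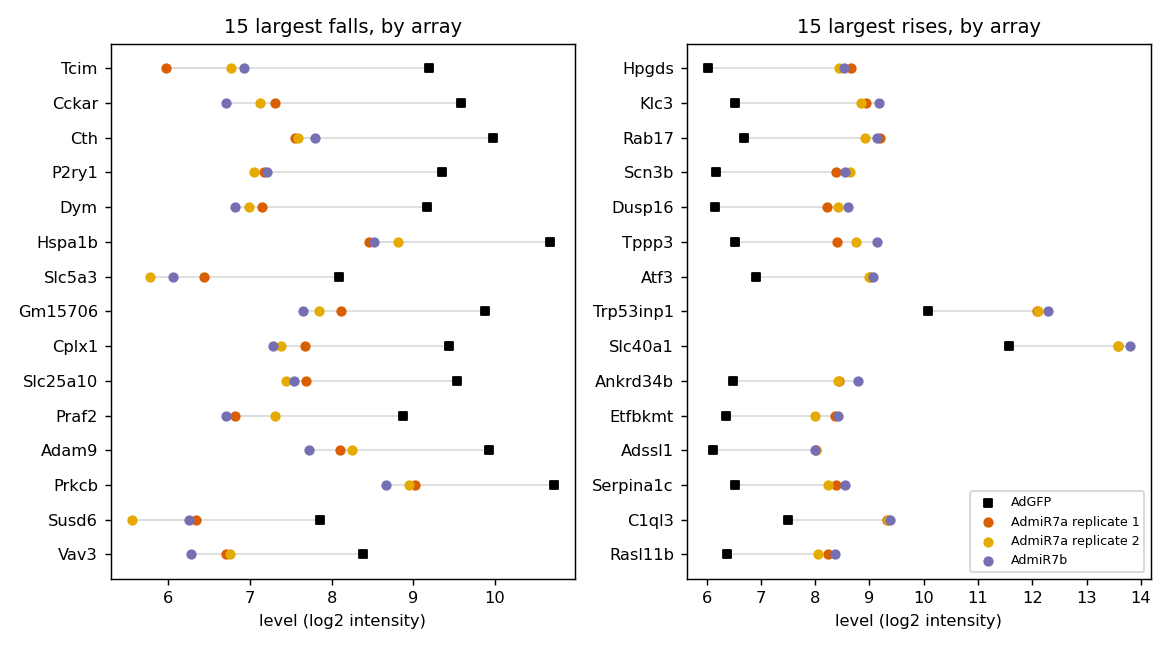
Log2 level of the 15 genes with the largest falls (left) and the 15 with the largest rises (right) among genes at 6 or more on both sides, with the AdGFP array as a black square and each miR-7 array as a circle. In each of the 30 genes the 3 miR-7 arrays lie together on 1 side of AdGFP. The rule requires this, since it takes only genes at least 1 from AdGFP on all 3.

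Rises chosen by the same rule reached 2.52. Slc40a1, which encodes ferroportin, the only known iron exporter of mammalian cells, was at 11.57 on AdGFP and 13.57, 13.57 and 13.79 on the miR-7 arrays, and rose by 2.07 ± 0.12 (adjusted p = 0.0106). It was the largest rise among genes at 12 or more besides Trp53inp1, a p53 target gene that went from 10.07 to 12.09, 12.11 and 12.28. Atf3, a transcription factor gene induced by many stresses, was at 6.91 on AdGFP and 9.01, 8.99 and 9.06 on the miR-7 arrays. The spread among the miR-7 arrays was small next to the distance from AdGFP in all 3, which the rule favours.

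Genes of vesicle and microtubule traffic were among the 15. Rab17, a GTPase gene of epithelial endosomes, was at 6.68 against 9.20, 8.91 and 9.14 and rose by 2.40 ± 0.14. Klc3, a kinesin light chain gene, rose by 2.47 ± 0.16, and Tppp3, whose product promotes tubulin polymerization, rose by 2.23 ± 0.30. Hpgds, the prostaglandin D synthase gene, rose by 2.52 (6.02 against 8.66, 8.43 and 8.53). Scn3b, a sodium channel beta subunit gene, rose by 2.36 (other probe set 0.79, adjusted p = 0.396), and C1ql3, which encodes a secreted synaptic protein, rose by 1.85 (7.50 against 9.33, 9.35 and 9.37). Dusp16 rose by 2.26 and is described with the MAP kinases. The others were Ankrd34b (rose by 2.06), Etfbkmt (rose by 1.90, other probe set 0.57, adjusted p = 0.189), the adenylosuccinate synthase gene Adssl1 (rose by 1.89), Serpina1c (rose by 1.86) and the Ras-like GTPase gene Rasl11b (rose by 1.84). Serpina1c belongs to a family of near-identical copies that the probes may not separate. The 15 genes had adjusted p between 0.010 and 0.0195, and 4 of 5 with another probe set were higher there by at least 0.58.

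Few genes crossed from near the floor to a clear signal. Below 4 on AdGFP and at 6 or more on all 3 miR-7 arrays were 4 genes. Defb1, a beta-defensin gene, was at 2.57 on AdGFP and 7.26, 6.90 and 6.94 on the miR-7 arrays. Sdc4, a cell-surface heparan sulphate proteoglycan gene, was at 3.59 against 6.28, 6.33 and 6.55. Pbxip1, which encodes a protein that binds PBX transcription factors, was at 3.82 against 6.11, 6.23 and 6.37. Lrrc39 was at 3.68 against 6.22, 6.74 and 6.59. In the other direction there was 1 gene, the interleukin gene Il4, at 7.15 against 3.81, 3.84 and 3.81. The size of these differences is set in part by the floor, and the small spread of Il4 on the miR-7 arrays is that of values near it. The filter takes a mean over 1 AdGFP array and 3 miR-7 arrays. It admits every such rise but only those falls that start high enough on AdGFP, so the counts of 4 and 1 cannot be compared.

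Of 1225 genes at 12 or more on AdGFP or on average with miR-7, 98 rose and 125 fell. For the 1119 at 12 or more on AdGFP, 5.63% rose and 11.2% fell, against 14.3% and 11.9% of all genes tested. The 6 largest falls among the 1225 genes included 2 genes of the endoplasmic reticulum, Ppib and Ero1b. Bace2, a protease of the beta-cell surface, was at 13.16 on AdGFP and 11.62, 11.48 and 11.33 on the miR-7 arrays (fell by 1.68 ± 0.14). Ppib, the cyclophilin B of the endoplasmic reticulum, was at 13.84 against 12.32, 12.27 and 12.04 (fell by 1.63 ± 0.14). Ero1b, an oxidase that serves disulphide formation in insulin folding, was at 14.48 against 13.31, 13.18 and 13.05. Tent5a fell by 1.58, the interleukin-1 receptor gene Il1r1 fell by 1.47 and the actin capping subunit gene Capza1 fell by 1.42. Among the rises were the vesicle membrane protein gene Sypl (rose by 1.14), the p53 target Ccng1 (rose by 0.89), the coactosin gene Cotl1 (rose by 0.83) and the AP-1 subunit gene Jund (rose by 0.78).

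The study's own miR-7 targets were lower on each miR-7 array than on AdGFP in the 6 that were tested. The list held 8 genes, of which 7 had a named probe set, and Basp1 was below the filter. The study picked them on these samples, so their direction is not independent evidence. Cplx1, the complexin that clamps SNARE complexes at the secretory granule, stood at 9.44 on AdGFP and 7.67, 7.38 and 7.28 on the miR-7 arrays. Zdhhc9, a palmitoyltransferase gene, was at 7.02 against 5.40, 5.56 and 5.27. Phactr1, which binds actin and a phosphatase, was at 8.29 against 7.18, 7.04 and 6.96. These 3 were at least 1 below AdGFP on every miR-7 array. The vesicle chaperone gene Dnajc5 was at 10.38 against 9.52, 9.48 and 9.32. The profilin gene Pfn2 was at 12.73 against 11.93, 11.92 and 11.85. Wipf2, an actin nucleation gene, was at 7.19 against 6.38, 6.22 and 6.40. All 6 that passed the filter fell, and another probe set of 4 of the 5 with one was lower by at least 0.58, that of Wipf2 by less (-0.28). The other probe set of Cplx1 (-1.09) and that of Wipf2 did not pass.

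**Figure D3:**
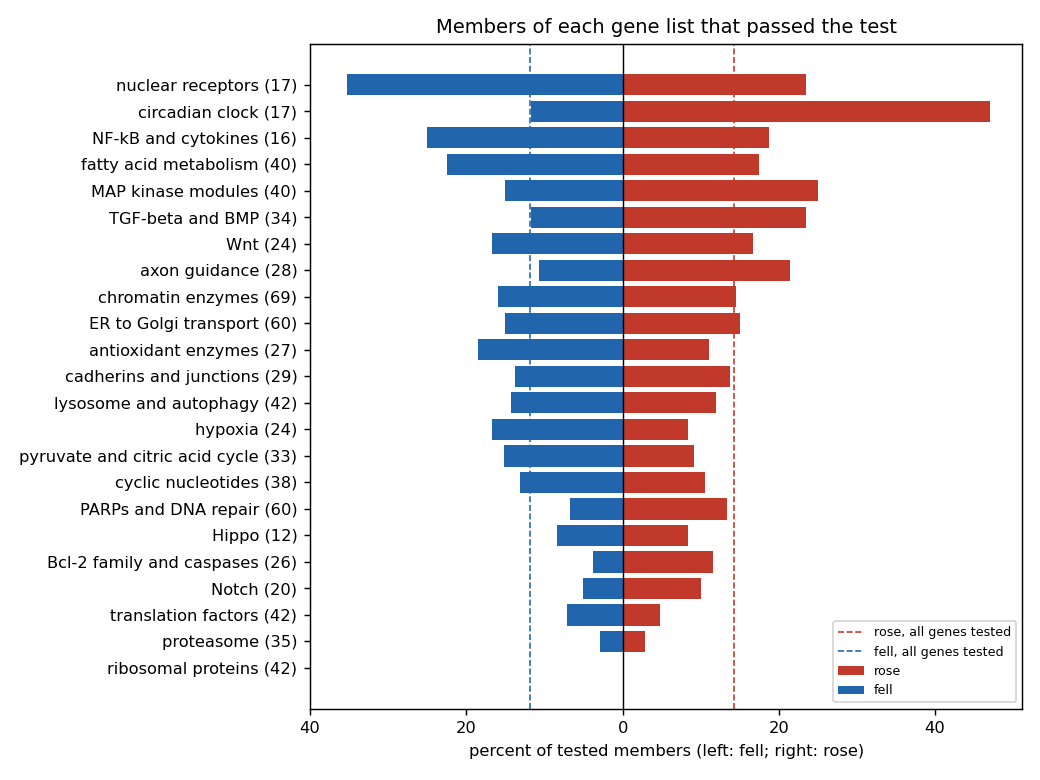
Percent of tested members of each gene list with at least 10 tested members that rose (red, right) or fell (blue, left), with the number tested in brackets; dashed lines give the share of all 10369 genes that rose (14.3%) or fell (11.9%). Among the lists drawn, which leave out the study's own targets, circadian clock genes and nuclear receptors had the highest shares, 58.8% each, and 0 of 42 ribosomal protein genes passed.

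Genes of the MAP kinase cascades changed in both directions. These cascades carry signals from Ras GTPases and stress sensors to ERK, JNK and p38 kinases, and dual-specificity phosphatases and Sprouty proteins switch them off. Of 40 members tested 10 rose and 6 fell (40% passed, against 26.2% of all genes), with a median of 0.04. Phosphatases and inhibitors that ERK signalling induces were among those that fell. Dusp6, the cytosolic ERK phosphatase, was at 10.79 on AdGFP and 9.26, 9.36 and 9.36 on the miR-7 arrays (fell by 1.47 ± 0.08, adjusted p = 0.010). Dusp4 was at 12.10 against 11, 10.92 and 10.89 (fell by 1.16), and Dusp5 fell by 0.71. Of the Sprouty genes, Spry4 fell by 1.06 (7.71 against 6.65, 6.89 and 6.40) and Spry2 fell by 0.79 (9.18 against 8.50, 8.37 and 8.31). The Ras inhibitor gene Nf1 fell by 0.64.

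Another 3 phosphatases of the family, which act mainly on p38 and JNK, rose. Dusp16 was at 6.16 on AdGFP and 8.22, 8.42 and 8.60 on the miR-7 arrays (rose by 2.26 ± 0.17, adjusted p = 0.0119). Dusp8 rose by 0.72 and Dusp1 by 0.61. Kinases of these cascades that rose were the ERK kinase gene Map2k1 (0.74, 10.24 against 11.07, 10.91 and 10.98), the p38 kinase gene Map2k6 (0.73), Map3k5 (0.50) and Mapk14 (0.34, other probe set 0.00), along with the Rac effector gene Pak3 (0.85) and the adaptor gene Grb2 (0.49, other probe set 0.15). Mapkapk3, a kinase activated by p38, was at 3.44 on AdGFP and 5.51, 6.01 and 6.57 on the miR-7 arrays, and its size depends on a value near the floor. Members that did not pass included Dusp10 (-0.64, adjusted p = 0.0915) and Braf (-0.56, adjusted p = 0.123).

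**Figure D4:**
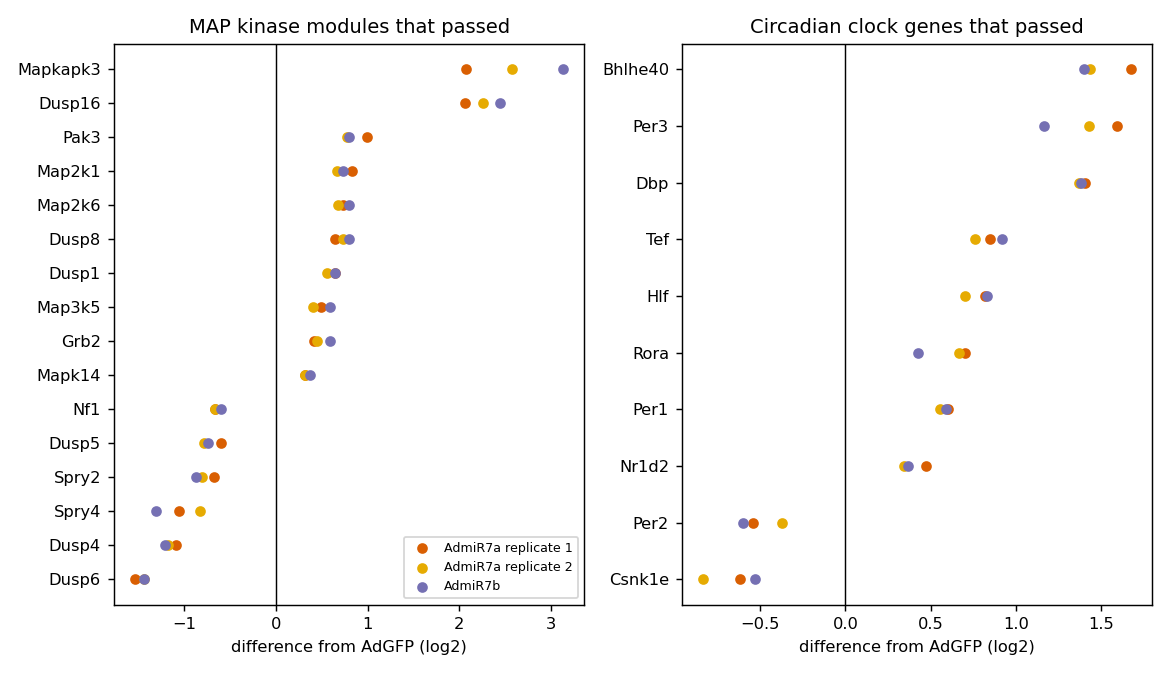
Difference from AdGFP (log2) on each of the 3 miR-7 arrays for the 16 members of the MAP kinase list (left) and the 10 members of the circadian clock list (right) that passed the test. Points of a gene lie on the same side of 0 on all 3 arrays, which passing the test favours. Dusp6, Dusp4, Spry4, Spry2 and Dusp5 lie below 0 and Dusp16, Dusp8 and Dusp1 above it.

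More circadian clock genes rose than fell. The clock runs on a loop in which CLOCK and BMAL1 drive Period and Cryptochrome genes that feed back on them, and its output includes the PAR bZIP factors Dbp, Tef and Hlf. Of 17 members tested 8 rose and 2 fell (58.8% passed, against 26.2% of all genes), with a median of 0.39. Dbp was at 9.92 on AdGFP and 11.33, 11.29 and 11.30 on the miR-7 arrays (rose by 1.39 ± 0.07, adjusted p = 0.010). Bhlhe40, a repressor of the loop that other stimuli also induce, was at 8.59 against 10.27, 10.03 and 9.99 (rose by 1.5 ± 0.14). Per3 was at 5.04 against 6.64, 6.47 and 6.21 (rose by 1.40 ± 0.19). All 3 miR-7 arrays were thus at least 1 above AdGFP for these genes. Tef rose by 0.84 (other probe set 0.06), Hlf by 0.78, Rora by 0.60, Per1 by 0.58 and Nr1d2, a repressor of Bmal1, by 0.39. Per2 fell by 0.50 (7.61 against 7.07, 7.24 and 7.01), and the casein kinase gene Csnk1e fell by 0.66 (other probe set -0.48). The labels give no time of day or of medium change for the cultures.

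The 250 bases before the starts of the clock genes were searched on both strands for the motifs of the clock, the E-box CACGTG and the D-box TTATGTAA, TTACATAA or TTACGTAA. Of the 8 genes that rose 7 had a promoter in the RefSeq table, of which 2 held an E-box, a motif found before 6.86% of 27025 genes, and 1 held a D-box, found before 1.10%. Of the 7 other tested clock genes with a promoter, which did not rise, 2 (Cry1 and Ciart) also held an E-box and 0 a D-box, so the E-box was as frequent in both. These stretches are shown with the motif in capitals, on the strand of the gene (GRCm38.p6).
Per1 (chr11:69098766-69098805, plus): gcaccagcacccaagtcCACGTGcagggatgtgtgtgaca
Tef (chr15:81802529-81802568, plus): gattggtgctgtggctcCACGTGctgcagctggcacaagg
Per3 (chr4:151044846-151044887, minus): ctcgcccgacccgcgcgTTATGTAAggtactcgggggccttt
The E-box starts 166 bases before the start of Per1 and 127 before that of Tef, and the D-box 205 before that of Per3. A match describes the letters in the window and not binding.

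Nuclear receptors are transcription factors that bind steroids, retinoids, lipids or other small ligands. Of 17 members 10 passed, with 4 higher and 6 lower (58.8% in all, against 26.2% of all genes, median -0.10). Nr4a3, an orphan receptor of the immediate early class, was at 7.05 on AdGFP and 6.06, 6.05 and 5.93 on the miR-7 arrays (fell by 1.04 ± 0.09), and Nr4a2 fell by 0.39. Esrrg, which raises mitochondrial genes in maturing beta cells, was at 8.70 against 7.94, 7.70 and 7.52 (fell by 0.98 ± 0.18). The vitamin D receptor gene Vdr was at 7.78 against 7.02, 6.97 and 6.6 (fell by 0.92 ± 0.20, other probe set -0.52). Nr2c1 fell by 0.98 (other probe set -0.21) and the retinoid partner gene Rxrb fell by 0.49. In the other direction, Nr0b2, a corepressor also known as SHP, rose by 0.94, Nr6a1 by 0.76 and the thyroid hormone receptor gene Thra by 0.46 (other probe set 0.14). Rarg rose by 0.32 at a low level (5.65 against 5.97, 5.97 and 5.97), with an SD of only 0.002 among the miR-7 arrays.

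In TGF-beta and BMP signalling, 3 of 4 Id genes and both inhibitory SMAD genes rose, and an antagonist, a ligand and a receptor gene fell. Ligands of this family bind paired serine kinase receptors and act through SMAD proteins, and Id genes are classic BMP targets. Of 34 members tested 8 rose and 4 fell (35.3% passed, against 26.2% of all genes, median 0.12). The secreted BMP antagonist Grem1 was at 8.96 on AdGFP and 7.62, 7.60 and 7.68 on the miR-7 arrays (fell by 1.33 ± 0.08, adjusted p = 0.010). The activin subunit gene Inhba fell by 0.83 (11.23 against 10.26, 10.45 and 10.47). The receptor gene Acvr1c fell by 0.71 and the BMP-1 protease gene Bmp1 fell by 0.66. Id3 rose by 0.96 (10.48 against 11.41, 11.34 and 11.55), Id1 by 0.84 and Id4 by 0.55, while Id2 stood at 0.55 without passing (adjusted p = 0.0665). The inhibitory SMAD genes also rose, Smad6 by 1.41 (4.61 against 5.93, 6.02 and 6.09) and Smad7 by 0.53 (other probe set 0.21), as did Smad2 (0.49, other probe set 0.06) and Smad1 (0.32, other probe set 0.16). Tgfb3 stood at 1.91 and Bmpr2 at -0.89 without passing (adjusted p = 0.0687 and 0.0503).

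Wnt pathway genes numbered 24 tested, of which 4 rose and 4 fell (33.3% passed, against 26.2% of all genes), mostly receptors. The receptor genes Fzd7 (7.29 against 6.11, 6.01 and 6.07) and Ryk (9.57 against 8.45, 8.49 and 8.38) fell by 1.22 and fell by 1.13, with Fzd3 and Fzd5 lower by smaller amounts (-0.59 and -0.51; the other probe set of Fzd3 stood at -0.14). Lgr4, the receptor for R-spondins, rose by 1.06 (7.42 against 8.47, 8.44 and 8.54), the ligand gene Wnt5b by 1.15, the secreted inhibitor gene Wif1 by 0.73 and Fzd1 by 0.57. In the Notch pathway 3 of 20 members passed. Rfng, a fringe glycosyltransferase that tunes Notch receptors, was at 6.79 on AdGFP and 5.16, 5.07 and 4.8 on the miR-7 arrays (fell by 1.78 ± 0.17), while the target genes Hey1 and Hes1 rose by 0.77 and 0.73. Of 12 Hippo pathway members, Nf2, the upstream regulator merlin, was at 9.10 against 7.84, 7.49 and 7.15 (fell by 1.61 ± 0.29). Amotl2 rose by 0.48 at a low level (4.34 against 4.82, 4.82 and 4.81), with an SD of only 0.003 among the miR-7 arrays. The shares that passed in the Notch (15%) and Hippo (16.7%) lists were below that of all genes.

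Among genes of cell contacts, that of the beta-cell gap junction fell. Gjd2, the connexin that couples beta cells electrically, was at 11.71 on AdGFP and 10.49, 10.48 and 10.29 on the miR-7 arrays (fell by 1.29 ± 0.12, adjusted p = 0.0131, other probe set -0.96). Of 29 cadherin and junction genes 4 rose and 4 fell (27.6%, against 26.2% of all genes). Cdh6 fell by 0.99 and the neuronal adhesion gene Nrcam fell by 0.78, whereas Jam3 (0.73), the plakoglobin gene Jup (0.70), Ctnna2 (0.65) and the tight junction gene Cgn (0.65) rose. Of 28 axon guidance genes 6 rose and 3 fell (32.1%, against the same 26.2%). The ephrin receptor gene Epha5 was at 7.11 against 5.78, 5.67 and 5.87 (fell by 1.34, but -0.12 with its other probe set), and Sema3c fell by 0.74. The semaphorin genes that rose most were Sema6d (6.19 against 7.62, 7.49 and 7.54, rose by 1.36) and Sema4a (6.69 against 7.76, 7.85 and 7.87, rose by 1.14). Efna1 rose by 1.42 from 3.34, near the floor.

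Cyclic AMP amplifies glucose-induced insulin secretion. Of 38 genes of its signalling 4 rose and 5 fell (23.7%, against 26.2% of all genes, median 0.04). The adenylyl cyclase genes Adcy9 (10.24 against 9.21, 9.25 and 9.02) and Adcy1 fell by 1.09 and fell by 0.58. Prkar1a, the main inhibitory subunit of protein kinase A, was at 14.90 against 14.23, 14.28 and 14.13 (fell by 0.69), and the catalytic subunit gene Prkacb rose by 0.36. The inhibitory G protein genes Gnai1 and Gnao1 rose by 0.80 and 0.50 (the other probe set of Gnao1 stood at -0.12), and the anchoring protein gene Akap7 by 0.97. The phosphodiesterase gene Pde1c fell by 0.65 (other probe set -0.20) and the CREB coactivator gene Crtc3 fell by 0.82 (other probe set -0.29). Gnas, which encodes the stimulatory G protein, was among the most abundant members that did not pass (0.01). Its other probe set stood at -1.12, so its value depends on the probe set.

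Among fatty acid genes, several of synthesis fell and a lipid droplet coat gene rose. Of 40 genes of fatty acid metabolism 7 rose and 9 fell (40%, against 26.2% of all genes, median -0.02). Srebf1, the transcription factor that drives lipogenic genes, was at 11.57 on AdGFP and 10.81, 10.70 and 10.74 on the miR-7 arrays (fell by 0.82 ± 0.08). Desaturase and elongase genes that fell were Fads1 (fell by 0.91), Scd2 (15.21 against 14.65, 14.64 and 14.46, fell by 0.63), Scd1 (fell by 0.54, other probe set -0.16) and Elovl6 (fell by 0.66). Enzymes that activate or esterify fatty acids also fell, Acsl5 by 1.09 (11.92 against 10.84, 10.82 and 10.84), Gpam, which adds the first acyl chain to glycerol, and Agpat1. The lipid droplet coat gene Plin2 was at 8.31 against 9.33, 9.57 and 9.82 (rose by 1.26 ± 0.21). Lpin1, a phosphatidate phosphatase gene, rose by 1.13, and the fatty acid binding protein genes Fabp3 and Fabp5 by 1.22 and 0.46. Among oxidation genes Hadha, Cpt2 and Cpt1c rose by 0.68, 0.35 and 0.34, and Hadh, which restrains insulin secretion in beta cells, fell by 0.58.

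Pyruvate and citric acid cycle enzymes changed in single steps, with 3 of 33 higher and 5 lower (24.2% passed, against 26.2% of all genes). Citrate synthase, encoded by Cs, was at 13.24 on AdGFP and 12.63, 12.57 and 12.61 on the miR-7 arrays (fell by 0.63 ± 0.07). Regulators of pyruvate dehydrogenase fell, the kinase gene Pdk3 by 1.07, the phosphatase gene Pdp1 by 0.87 and the subunit gene Pdhx by 0.83. Idh1, Sdha and Sucla2 rose by 0.47, 0.42 and 0.38 (other probe set of Idh1 0.31 and of Sdha 0.01), and Sdhd fell by 0.47.

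Antioxidant genes included 3 of 27 that rose and 5 that fell (29.6%, against 26.2% of all genes). Glutaredoxin, encoded by Glrx, was at 11.90 on AdGFP and 10.46, 10.43 and 10.24 on the miR-7 arrays (fell by 1.52 ± 0.12, adjusted p = 0.0125). The metal-binding metallothionein genes Mt1 (14.83 against 13.82, 13.76 and 13.63) and Mt2 fell by 1.10 and fell by 0.61. The mitochondrial peroxiredoxin gene Prdx3 fell by 0.67 and the quinone reductase gene Nqo1 fell by 0.78. Nfe2l2, the factor NRF2 that drives Nqo1, rose by 0.41. Txnip, an inhibitor of thioredoxin that glucose induces, was at 8.08 against 8.78, 8.90 and 8.83 (rose by 0.76, other probe set 0.38), and the ferritin gene Fth1 rose by 0.37. Of 24 hypoxia genes 2 rose and 4 fell (25%, against the same 26.2%). Among the latter were Vegfa (11.51 against 10.70, 10.69 and 10.40, fell by 0.91, other probe set -0.44) and Ero1a (fell by 0.85). Another was the oxygen sensor gene Egln1 (fell by 0.96), which stood at 0.19 with its other probe set.

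Transport from the endoplasmic reticulum to the Golgi had 9 of 60 members higher and 9 lower (30.0%, against 26.2% of all genes, median -0.02). Sec23a, an inner coat protein of COPII vesicles, was at 9.77 on AdGFP and 11.30, 11.30 and 11.32 on the miR-7 arrays (rose by 1.54 ± 0.07, adjusted p = 0.010), and the outer coat gene Sec13 and the SNARE gene Sec22b rose by 0.61 and 0.59. Sec24c, a cargo adaptor of the same coat, fell by 0.62. Gbf1, the exchange factor that activates Arf GTPases at the Golgi, was at 9.21 against 8.29, 8.16 and 8.0 (fell by 1.06), and the Arf genes Arf3 and Arf4 fell by 0.74 and fell by 0.70 (other probe set of Arf4 -0.40). The cargo receptor genes Lman2 and Tmed9 fell by 0.94 and fell by 0.77 (other probe set of Lman2 -0.33), and Ckap4, a structural protein gene of the reticulum, fell by 0.77. Glycosylation enzymes divided, with B4galt1 (0.84), St6gal1 (0.73) and Man1a (0.56) higher and St3gal1 (-0.90) and Mgat2 (-0.50) lower. In each of the 18 genes that passed the 3 miR-7 arrays lay on 1 side of AdGFP, which passing the test favours.

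Lysosome and autophagy genes changed in 11 of 42 cases (26.2%, the same share as over all genes, with 5 higher and 6 lower). Subunits of the proton pump that acidifies lysosomes and granules were split. Atp6v1e1 (12.52 against 11.55, 11.45 and 11.43) and Atp6v1a (12.82 against 11.94, 11.78 and 11.64) fell by 1.04 and fell by 1.03, and Atp6v1b2 rose by 0.45 (other probe set 0.30). Of the autophagy initiation genes, Atg9a, Wipi1 and Becn1 fell by 0.83, fell by 0.64 and fell by 0.52. Ulk2 rose by 0.33, and Ulk1, Atg13, Atg14 and Pik3c3 did not pass. Atg12 and Gabarapl1 rose by 0.67 and 0.33 and the cholesterol exporter gene Npc1 by 0.63.

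Few genes of the proteasome and of translation passed the test, against 26.2% of all genes. Of 42 ribosomal protein genes 0 rose and 0 fell by limma (2 at an unadjusted p under 0.05), with a median of 0.05. Of 35 proteasome genes 1 rose, the immunoproteasome subunit gene Psmb10 (0.79), and 1 fell, the activator gene Psme4 (-0.37), 5.71% in all. Of 42 translation factors 2 rose and 3 fell (11.9%). Eif1ax, which positions the ribosome for start site scanning, was at 12.49 on AdGFP and 11.49, 11.48 and 11.44 on the miR-7 arrays (fell by 1.02 ± 0.07). Eif4ebp2, a repressor of cap-dependent translation, was at 9.04 against 8.16, 8.07 and 8.02 (fell by 0.96 ± 0.09). Eif5a2 rose by 0.70 but stood at -0.01 with its other probe set, and Eif3d rose by 0.49.

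Chromatin enzymes had 10 of 69 members higher and 11 lower (30.4%, against 26.2% of all genes, median 0.02). Hdac11, a deacetylase gene, was at 6.52 on AdGFP and 7.76, 7.78 and 7.82 on the miR-7 arrays (rose by 1.26 ± 0.07), Sirt3, the mitochondrial deacetylase gene, rose by 0.93 and the methyltransferase gene Setd7 by 0.73. The acetyltransferase gene Kat2b was at 11.83 against 10.86, 10.82 and 10.78 (fell by 1.01), the demethylase gene Kdm5c fell by 1.04, Kmt5a fell by 0.81 (other probe set -0.42) and the polycomb gene Ezh1 fell by 0.81. Of 60 PARP and DNA repair genes 8 rose and 4 fell (20%, against the same 26.2%). Parp1 was at 10.49 against 8.77, 9.19 and 8.84. The higher genes included Polk (0.86), a polymerase that copies past lesions, and the excision repair genes Ercc5 (0.81) and Xpc (0.71).

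Of 26 genes of the Bcl-2 family, caspases and their inhibitors 3 rose and 1 fell (15.4%, against 26.2% of all genes, median 0.18). The death agonist genes Bid (5.87 against 6.96, 7.18 and 7.35) and Bmf (5.01 against 6.06, 5.91 and 6.06) rose by 1.29 and 1.0, while Bcl2l11, encoding the agonist BIM, fell by 0.67. Casp6 rose by 1.13 from 3.86, near the floor, and Casp9 stood at -1.10 without passing (adjusted p = 0.109). Of 16 NF-kB and cytokine genes 3 rose and 4 fell (43.8%, against the same 26.2%). The NF-kB subunit gene Rela fell by 0.57, its inhibitor genes Nfkbia (11.45 against 12.08, 11.96 and 12.05) and Nfkbie rose by 0.58 and 0.37, and Csf1 rose by 0.72 but stood at 0.02 with its other probe set. The chemokine gene Cxcl12 was at 6.67 against 5.26, 5.44 and 5.66. Nfkbiz fell by 0.65 but stood at 0.02 with its other probe set.

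The vectors for miR-7a and miR-7b share the AdGFP control, so their differences from it are given side by side only. When AdmiR7b was tested directly against AdmiR7a, limma called 0 of 10369 genes (0.0%). The lowest adjusted p was 0.737, and 608 genes had an unadjusted p under 0.05. That fit has 1 residual degree of freedom, so it does not show that the vectors act alike. The genes with the widest gaps are given as values. Stc1, the stanniocalcin gene, was at 6.95 on AdGFP and 6.39, 5.64 and 4.71 on the miR-7 arrays, and Adm, the adrenomedullin gene, at 7.59 against 7.22, 7.23 and 6.17. Ddit4l, an inhibitor of mTOR signalling, was at 3.87 against 5.74, 6.19 and 7.0. The long RNA Kcnq1ot1 was 1.06 lower with AdmiR7b than with AdmiR7a (-1.06), and Zfp282 0.97 higher.

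The islet arrays give a comparison that shares no array with MIN6, that of islets with miR-7a2 knocked out in beta cells with wild-type islets. With 1 array per group it has no replicate check and no p-value. Of the 211 genes at least 1 lower on all miR-7 arrays, 181 also had a mean of at least 4 in islets with the same probe set, and 142 of them (78.5%) were higher in KO than in WT, against 46.4% of all 9753 such genes. Their median KO minus WT difference was 0.309, against -0.015 over all. Of the 223 higher genes 183 were measured in islets, of which 46 (25.1%) stood above and 137 below WT in the KO islets (median -0.24). By a size of 1, 16 of the 181 lower genes were higher in KO (1.54% of all genes were) and 1 was lower. Of the 183 higher genes 13 were at least 1 lower in KO (0.697% of all genes were) and 2 higher. The 16 included Cth (KO minus WT 1.43), Phactr1 (1.49), Praf2 (1.31), Igf1r, Tacr3, Slc6a9 and Zmat3, and the 13 included Rab17 (-2.28), Defb1 (-1.03), Itgb8 and Kcnk16.

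**Figure D5:**
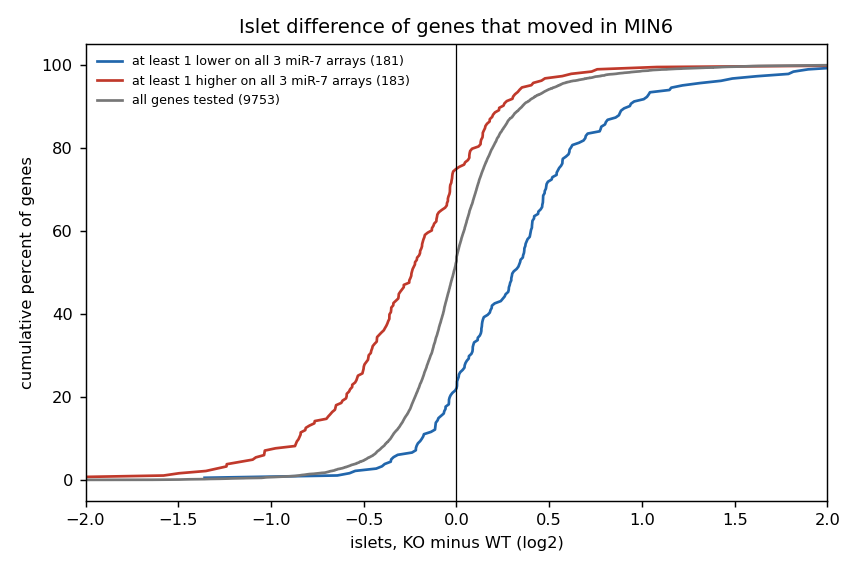
Cumulative percent of genes (y axis) by their difference between KO and WT islets (log2, x axis drawn from -2 to 2), for 181 genes at least 1 lower and 183 genes at least 1 higher on all 3 miR-7 arrays of MIN6 and for all 9753 genes measured in both. The blue curve of the lower genes lies to the right of the grey one and the red curve of the higher genes to its left.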

How the data were processed

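RNA from 4 MIN6 samples and 2 islet samples was measured on Affymetrix arrays. The deposited values are log2 intensities, 1 per probe set, which the authors made with GCRMA and affy, per the submitters' processing notes, without versions. GCRMA models background from probe sequence and quantile-normalizes, which sets a common floor and compresses low values. Whether other arrays were normalized with these is not given in the sources used here.

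Of 45101 probe sets 34958 had 1 gene symbol, 932 several and 9211 none in the platform annotation; symbols were updated by Entrez identifier through RefSeq (34754 matched). Among the probe sets of each of 18194 genes, that of highest mean in MIN6 was taken, and genes with a mean of at least 4 were tested with limma 3.58.1 (R 4.3.3). Gene names followed a rule. It took the 15 largest changes each way among genes that passed and were at 6 or more on both sides. These had to be at least 1 from AdGFP in 1 direction on all 3 miR-7 arrays. The rule also took genes crossing between below 4 and 6, 6 each way at 12 or more that passed, and 3 gaps between vectors each way. From each list it took up to 6 members that passed and 2 that did not. Members named beyond these were chosen after their values were seen. The members and lists were chosen with earlier results of these data known. Lists held 25 sets. The number of arrays limits the precision. Alternatives covered the filter, probe sets, normalization, the model and each miR-7 array left out.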

Additional observations from a re-analysis of the deposited data

Results flagged for a closer look

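The bacterial hybridisation controls, added to each array and outside the comparison of genes, averaged 0.173 more (log2) with miR-7 than with GFP, in 18 of 18 probe sets (11.62 on AdGFP and 11.74, 11.78 and 11.85 on the miR-7 arrays). Its part in the results was not tested. Among the 219 genes named by rule, 5 (of 540 among all 10369 genes) lay on opposite sides of AdGFP with the vectors, both AdmiR7a arrays on 1 side and AdmiR7b on the other. Trp53rkb was 1.26 higher with AdmiR7b than with AdmiR7a (4.88 on AdGFP, 4.79 and 4.84 with AdmiR7a and 6.07 with AdmiR7b, limma adjusted p = 0.737), and its probe set may share signal with a near-identical gene. The other differences of AdmiR7b from AdmiR7a were 0.03 for Eif5a, 0.05 for Mdh1, 0.10 for Gnas and -0.10 for Suz12, and limma called none of the 5 (608 of all genes had an unadjusted p under 0.05).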

How the results depend on the processing

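Of the 2715 genes called by limma, all kept their direction with quantile normalization of the MIN6 arrays and with centring. A change of filter or prior leaves the difference itself as it is, so the direction could not change there. Fits with a miR-7 array left out share the AdGFP array, so the direction kept there is no independent check. The counts of rises and falls stayed within 1.5 times with a filter at 6, averaged probe sets, quantile normalization, centring and both priors. Without a filter 427 genes rose and 554 fell of 18194. Of these 981 genes 563 were among the 2715, so most of the 2715 calls depend on the filter. With the second probe set of each gene, which only 4679 genes have, 324 rose and 381 fell, and 69 were at least 1 higher and 123 at least 1 lower on all 3 arrays. At an adjusted p under 0.10, 2394 rose. With a mean per vector, which leaves 1 residual degree of freedom, 0 rose and 0 fell (lowest adjusted p 0.052, 4253 at an unadjusted p under 0.05). Leaving out each miR-7 array left 0 to 0 genes that rose and 0 to 0 that fell by limma (3765 to 3888 at an unadjusted p under 0.05). Of the 2715 genes, 2536 of 2569 measured kept their direction with averaged probe sets and 1070 of 1187 with the second probe set. Only some of the 219 genes named by rule have a second probe set. It left the result the same for 82, made it stronger for 2 and ended the call of 33. It turned the sign of 3, Nfkbiz (0.02), Eif5a2 (-0.01) and Egln1 (0.19). Without a filter the call of 118 of the 219 genes ended. No paired analysis was possible because only AdmiR7a has numbered replicates. The lone AdGFP array could not be left out, and values near the floor of 2.17 limit the size of differences.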
